A study of Mus musculus with 28 samples.

Results

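Stra8 knockout (KO) and wild-type (WT) male germ cells of the mouse were compared 48 h after an injection of retinoic acid. The members are the KO and WT libraries that the labels place at this time, 2 a side, which makes 4 of the 28 libraries in the series. The mice derived from a C57BL/6 x 129s4/SvJae background, and every animal, KO and WT, was given WIN 18,446 over 7 days and carried the PIWIL2-eGFP reporter that was used to sort germ cells out of the testis. WIN 18,446 blocks the making of retinoic acid, so that spermatogonia accumulate before differentiation and then start it together when retinoic acid is given. The age of the mice, the part of Stra8 that the knockout lacks and whether 2 libraries of a group came from separate animals are not stated in the labels. Each p-value weighs a difference against the spread between libraries of a group, estimated over all 28 libraries. That spread may therefore be technical. The question set by the series is how spermatogonia progress to meiosis with and without Stra8, and 48 h is the fourth of its 7 times.

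Retinoic acid moves undifferentiated spermatogonia, the population that holds the stem cells, into a series of divisions as differentiating spermatogonia that carry the receptor KIT. It also switches on Stra8, which encodes a DNA-binding factor that germ cells need for the entry into meiosis. In the mouse testis Stra8 transcript appears both in spermatogonia that begin to differentiate and, later, in preleptotene spermatocytes.

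Read totals at 48 h were 6706360 and 3340355 in the KO libraries 1 and 2, and 9655560 and 7516646 in the WT libraries 1 and 2, within a range of 913055 to 10135820 over the series. The 3 shallowest libraries, with 1078460, 913055 and 1030025 reads, were KO libraries of 72, 96 and 120 h and entered the tests here through the shared estimate of spread. Libraries are numbered by the count table that holds them, and both are given separately throughout, library 1 before library 2. Across genes the pair of KO libraries correlated at 0.978 and the pair of WT libraries at 0.971 on the log2 CPM scale (counts scaled to the library total). Mitochondrially encoded genes took 5.81% and 5.73% of reads in the KO libraries, against 2.15% and 4.20% in the WT libraries. The germ-cell label was checked with Ddx4, an RNA helicase of germ cells, at 481 and 478 CPM in KO and 416 and 438 CPM in WT, and with the germ-cell RNA-binding protein gene Dazl, at 757 and 614 CPM in KO and 701 and 632 CPM in WT. Both were abundant in all 4 libraries. Unless named otherwise, CPM is scaled by TMM, edgeR's trimmed-mean normalisation. Log2 fold changes are KO over WT (n = 2 libraries per genotype), with a standard error (SE) from the fit over all 28 libraries.

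Stra8 itself separated the KO libraries. It had 417 reads in KO library 1 and 7 reads in KO library 2, against 938 and 1500 reads in the WT libraries. As CPM of the library total these are 62.2 and 2.10 in KO and 97.1 and 199.6 in WT. All WT values lay above both KO values, but KO library 1 lay much nearer to WT library 1 than to its KO partner. In the other 12 KO libraries Stra8 ranged between 0 and 30.7 CPM. KO library 1 at 48 h was thus the highest of the 14 KO libraries. The fitted log2 fold change was -2.13 ± 0.77, and it did not pass at 48 h (quasi-likelihood test of edgeR, adjusted p = 0.438 after Benjamini-Hochberg over all genes). Without KO library 1 it was -6.14 with an adjusted p of 0.00492, and without KO library 2 it was -1.28 with an adjusted p of 0.995. Without WT library 1 or WT library 2 it was -2.56 or -1.53, with adjusted p = 0.564 and 0.741. Since the missing part of the gene is unknown, Stra8 reads in a KO library check the label only in part.

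**Figure D1:**
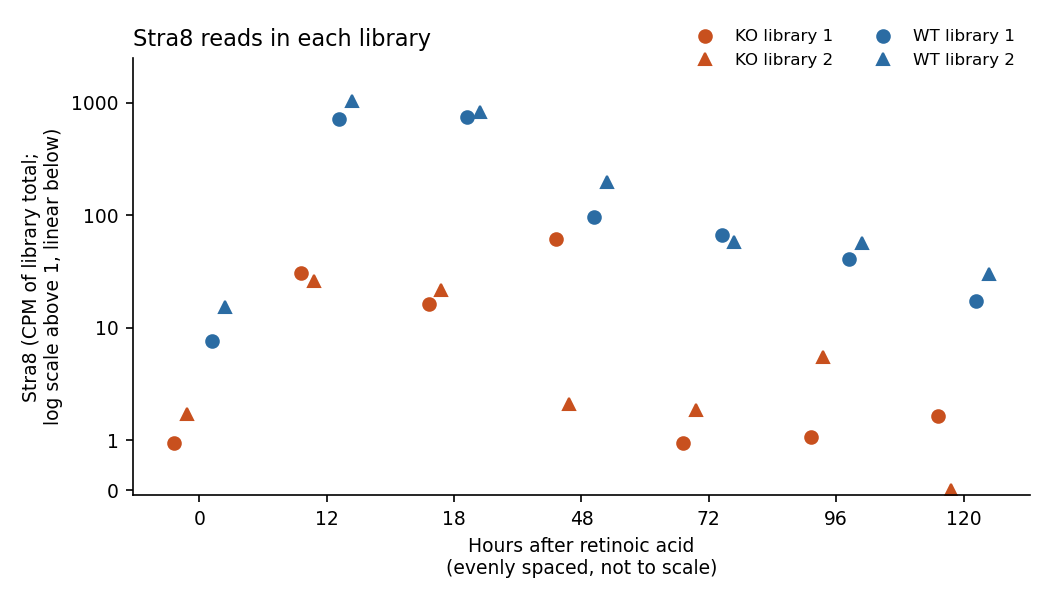
Stra8 CPM of the library total (vertical axis, log scale above 1 and linear below) at each of the 7 times in hours (horizontal axis, evenly spaced), 1 point per library, with KO and WT in different colours and library 1 and 2 as different symbols. At 48 h KO library 1 stands at 62.2 CPM and KO library 2 at 2.10 CPM, below the WT libraries at 97.1 and 199.6 CPM.

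Among 12237 features with at least 5 CPM in any of the 4 libraries, Stra8 had the largest ratio of KO library 1 to KO library 2, with a log2 ratio of 4.59 after adding 0.5 CPM. In all, 9 features differed by over 4-fold between the KO libraries, 8 of them higher in KO library 1, against 72 between the WT libraries. After Stra8 the next features were the ribosomal pseudogene model Gm10260, Lrrc17, which encodes a leucine-rich repeat protein, and the pseudogene Rps15a-ps6. Lrrc17 had 22.1 and 2.10 CPM of the library total in KO and 1.76 and 23.3 CPM in WT. The mitochondrial transfer RNA gene mt-Tm had 32.7 and 5.39 CPM in KO and 4.97 and 37.0 CPM in WT, and the gene model Gm4149 had 57.1 and 12.6 CPM in KO and 0.93 and 58.8 CPM in WT. In 5 of the 10 features with the largest ratio WT library 2 was over 2-fold above WT library 1, and in 2 of them, Gm10260 and Mroh5, it was over 2-fold below. Gm10260 had 56.2 and 5.99 CPM of the library total in KO and 30.6 and 2.00 CPM in WT. These ratios compare single libraries and carry no test.

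The promoter of Stra8 is printed because the comparison turns on this gene, as RefSeq gives it for GRCm38.p6 on chr6:34920698-34920997, + strand, from 250 bases before to 50 bases after a transcript start. Capitals mark the only match to CCTCAG or its reverse complement CTGAGG, the core of a motif described for STRA8 binding in meiotic germ cells.
Stra8 promoter: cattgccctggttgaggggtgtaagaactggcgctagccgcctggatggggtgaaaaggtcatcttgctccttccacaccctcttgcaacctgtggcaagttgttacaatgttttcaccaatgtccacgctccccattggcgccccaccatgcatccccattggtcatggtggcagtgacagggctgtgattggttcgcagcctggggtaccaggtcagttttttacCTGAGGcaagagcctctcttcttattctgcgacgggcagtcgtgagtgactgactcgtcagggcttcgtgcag
Stra8 lies on chromosome 6 from 34920163 to 34939344 in the GENCODE annotation of GRCm38, so this RefSeq start lies inside the annotated gene.

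Genes higher in KO outnumbered genes lower in KO among those past the threshold (adjusted p under 0.05). Of 17519 genes tested, 51 were higher in KO (0.291%) and 3 were lower (0.0171%), which makes 54 in all (0.308%). At an unadjusted p under 0.05, 757 genes were higher (4.32%) and 700 lower (4%), 1457 in all (8.32%), so both directions were about equally common at that level. DESeq2 called 94 higher and 14 lower, and 53 of the 54 genes were among them. The count of 54 became 23 without KO library 1, 0 without KO library 2 (880 genes at an unadjusted p under 0.05), 21 without WT library 1 and 2 without WT library 2. In these fits a lone library was assumed to vary like those of the other groups.

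The list with the most genes past the threshold was that of undifferentiated spermatogonia. Of its 28 genes 4 rose, 0 fell and 24 did not pass, while 0.291% of all genes tested rose and 0.0171% fell. The list was chosen with earlier results of these data known, so these shares are a description and have no test. The median log2 fold change of the list was 0.19, against -0.01 over all genes tested. This median was 0.35 without KO library 1 and -0.023 without KO library 2, so leaving out KO library 2 turned its sign. Upp1, which encodes the uridine-salvage enzyme uridine phosphorylase, had 40.2 and 51.1 CPM in KO and 16.5 and 9.23 CPM in WT (log2 1.81 ± 0.27, adjusted p = 0.00396). Egr4, a zinc-finger transcription factor gene of the early growth response family, had 72.6 and 112 CPM in KO and 20.8 and 31.0 CPM in WT (log2 1.83 ± 0.27, adjusted p = 0.00396). Utf1, a chromatin-bound factor of pluripotent cells and early spermatogonia, had 12.6 and 16.0 CPM in KO and 4.07 and 3.69 CPM in WT (log2 1.86 ± 0.31, adjusted p = 0.00618). Nanos3, which encodes an RNA-binding repressor that keeps germ cells alive, had 13.7 and 23.1 CPM in KO and 5.43 and 5.80 CPM in WT (log2 1.68 ± 0.33, adjusted p = 0.0230). In all 4 genes both KO libraries lay above both WT libraries, which held for 21.5% of all genes tested. KO library 2 was the higher of the KO pair in each. Without KO library 1, the KO library with Stra8 reads, the 4 genes remained past the threshold. Without KO library 2 none of them passed, without WT library 1 only Upp1 did and without WT library 2 only Egr4 did. In these sorted bulk samples a larger share of undifferentiated cells and more of the transcript per cell cannot be told apart.

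The other 24 genes of this list did not move as a block. Of all 28, 8 were higher and 0 lower at an unadjusted p under 0.05, and the 8 include the 4 genes past the threshold. Among all genes tested these shares were 4.32% and 4%. A positive log2 fold change was found in 19 of the 28, the same 4 genes included, against 8585 of 17519 genes tested. Pou5f1, the pluripotency factor gene, had 10.5 and 16.6 CPM in KO and 6.26 and 3.69 CPM in WT (log2 1.40 ± 0.32, adjusted p = 0.0577), and passed with DESeq2. Neurog3, a helix-loop-helix factor gene of early spermatogonia, had 14.3 and 21.9 CPM in KO and 7.30 and 7.78 CPM in WT (1.24 ± 0.33, adjusted p = 0.148). The paired-box gene Pax7 had 10.8 and 17.2 CPM in KO and 8.14 and 3.69 CPM in WT (1.21 ± 0.34, adjusted p = 0.185). These were the nearest of those that did not pass. Gfra1, the receptor for the niche factor GDNF, had 75.7 and 94.8 CPM in KO and 70.1 and 89.4 CPM in WT. Its partner Ret had 157 and 253 CPM in KO and 217 and 201 CPM in WT. The transcription factor gene Etv5, which GDNF controls, had 43.8 and 53.9 CPM in KO and 77.5 and 51.7 CPM in WT. Zbtb16, also a self-renewal factor gene, had 438 and 567 CPM in KO and 383 and 328 CPM in WT (0.50 ± 0.26, adjusted p = 0.637). For Gfra1, Ret and Etv5 the KO and WT libraries overlapped.

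Promoter windows of the 4 genes that rose are printed to show the bases around the start of transcription, from RefSeq on GRCm38.p6. The windows are chr11:9117853-9118152 on the + strand for Upp1 (the second of its 3 listed starts), chr6:85513540-85513839 on the - strand for Egr4, chr8:84176503-84176802 on the - strand for Nanos3 and chr7:139943606-139943905 on the + strand for Utf1. Capitals mark CCTCAG on either strand.
Upp1 promoter: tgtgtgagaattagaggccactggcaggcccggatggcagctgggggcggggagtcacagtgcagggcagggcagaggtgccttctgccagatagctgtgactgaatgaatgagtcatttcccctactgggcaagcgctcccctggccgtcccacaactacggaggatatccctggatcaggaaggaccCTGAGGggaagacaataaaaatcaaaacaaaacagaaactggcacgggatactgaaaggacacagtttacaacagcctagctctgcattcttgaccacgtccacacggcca
Egr4 promoter: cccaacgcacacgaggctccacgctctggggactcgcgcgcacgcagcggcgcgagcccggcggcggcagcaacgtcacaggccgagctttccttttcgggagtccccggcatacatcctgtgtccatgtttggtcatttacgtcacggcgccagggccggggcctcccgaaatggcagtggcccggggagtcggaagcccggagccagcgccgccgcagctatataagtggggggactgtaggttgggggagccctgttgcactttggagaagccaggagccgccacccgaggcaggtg
Nanos3 promoter: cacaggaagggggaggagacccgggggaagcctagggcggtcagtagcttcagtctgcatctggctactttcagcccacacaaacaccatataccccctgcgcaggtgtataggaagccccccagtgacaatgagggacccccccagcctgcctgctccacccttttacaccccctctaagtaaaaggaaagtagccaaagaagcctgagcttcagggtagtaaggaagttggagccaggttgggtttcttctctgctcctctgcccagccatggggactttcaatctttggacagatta
Utf1 promoter: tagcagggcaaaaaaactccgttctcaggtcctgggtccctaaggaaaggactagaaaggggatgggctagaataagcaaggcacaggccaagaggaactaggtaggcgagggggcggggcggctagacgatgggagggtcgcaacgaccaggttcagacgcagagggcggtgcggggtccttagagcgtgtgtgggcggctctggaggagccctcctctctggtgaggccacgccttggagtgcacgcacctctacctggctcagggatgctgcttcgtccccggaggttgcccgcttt
Nanos3 lies on chromosome 8 from 84173731 to 84185217 in the GENCODE annotation, so its RefSeq start lies inside the annotated gene. Of the 4 windows printed only that of Upp1 held the hexamer. Of the 3 Upp1 starts the third, chr11:9118257-9118556, had 0 matches. Over all 51 genes that rose, 40 had an entry, and 11 of their 50 windows held it (22%), against 26.8% of the 32851 promoter windows in the table. The 3 genes that fell had 6 windows and 0 with the hexamer. A match is a run of letters and not a bound site.

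The largest fold changes were in genes outside the lists. Among genes with at least 5 CPM in KO or WT, the keratin gene Krt75 had the largest fold change, with 6.98 and 7.39 CPM in KO and 0.94 and 0.53 CPM in WT (log2 3.23 ± 0.71, adjusted p = 0.0446). It shares 3.95% of its exon length with the model Gm44460. A second keratin gene, Krt24, had 8.17 and 10.5 CPM in KO and 2.40 and 1.19 CPM in WT (2.32 ± 0.50). Hoxb4, a homeobox transcription factor gene, had 5.64 and 5.54 CPM in KO and 1.57 and 0.53 CPM in WT (2.35 ± 0.47). Sntg2, which encodes a syntrophin of the membrane skeleton, had 8.61 and 10.8 CPM in KO and 1.57 and 1.98 CPM in WT (2.43 ± 0.41). The pair of KO libraries was close together for each of these genes, and the lower KO value was always over 3 times the higher WT value.

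Several genes that rose encode proteins with known roles in signalling or the matrix, and they are given singly, since no list of such genes was tested. Rspo1, a secreted enhancer of WNT signalling, had 15.3 and 15.4 CPM in KO and 3.86 and 4.22 CPM in WT (log2 1.92 ± 0.37, adjusted p = 0.0182). Igfbp6, which binds insulin-like growth factors, had 17.7 and 35.4 CPM in KO and 6.47 and 4.49 CPM in WT (2.24 ± 0.40). Lamb1, the laminin beta-1 chain of the basement membrane, had 399 and 631 CPM in KO and 191 and 182 CPM in WT (1.47 ± 0.25), the highest level among the genes that rose. Smad3, a transducer of TGF-beta and activin signals, had 84.0 and 92.0 CPM in KO and 50.5 and 36.1 CPM in WT (1.02 ± 0.20). Rin2, which encodes a regulator of the endosomal GTPase RAB5, had 72.0 and 79.1 CPM in KO and 25.1 and 9.10 CPM in WT (2.13 ± 0.33, adjusted p = 0.00579). For Rin2 the WT libraries differed more from each other than the KO libraries did. Lamb1 and Smad3 stand outside the rule for named genes and were chosen after their values were seen, as were the genes of the next paragraph that are said to be.

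Nab2, which encodes a corepressor of EGR proteins, rose beside Egr4, with 133 and 205 CPM in KO and 65.9 and 66.0 CPM in WT (log2 1.35 ± 0.21). It shares 42.2% of its exon length with Gm16229, so its reads cannot be assigned to it with certainty. Egr1, of the same family, had 127 and 170 CPM in KO and 75.8 and 74.5 CPM in WT (0.98 ± 0.31, adjusted p = 0.279) and did not pass. Of 26 immediate early and stress genes 0 passed in either direction, 2 were higher and 1 lower at an unadjusted p under 0.05, and DESeq2 called 0. Oasl2, an interferon-induced gene, had 55.4 and 66.8 CPM in KO and 20.6 and 13.98 CPM in WT (1.81 ± 0.25, adjusted p = 0.00279). The proteasome lid gene Psmd7 had 199 and 169 CPM in KO and 88.6 and 80.2 CPM in WT (1.13 ± 0.24). Psmb8, an immunoproteasome subunit gene, had 14 and 2 reads in KO and 0 reads in both WT libraries, where 3 counts would be 0.311 and 0.399 CPM of the library total. The 2 reads of KO library 2 are themselves under 3 counts, and Psmb8 shares 14.7% of its exon length with Gm20496. Nab2, Oasl2, Psmd7 and Psmb8 were chosen after their values were seen.

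The remaining genes named by rule rose in both KO libraries as well. Pgm5, a cell-adhesion protein gene related to phosphoglucomutase, had 6.68 and 12.9 CPM in KO and 2.50 and 1.32 CPM in WT. Glipr2, a Golgi-associated protein gene, had 14.6 and 18.8 CPM in KO and 5.22 and 1.98 CPM in WT. Kif19a, a kinesin gene of cilia, had 16.8 and 18.8 CPM in KO and 4.38 and 3.69 CPM in WT. Their log2 fold changes were 2.28 ± 0.48 for Pgm5, 2.16 ± 0.40 for Glipr2 and 2.12 ± 0.35 for Kif19a. Rbfox3, a splicing regulator gene known from neurons, had 9.50 and 12.9 CPM in KO and 2.61 and 2.77 CPM in WT (2.04 ± 0.39). Pacsin1, an endocytosis adaptor gene, had 26.7 and 48.9 CPM in KO and 11.8 and 9.23 CPM in WT (1.82 ± 0.30). Slc35f3, a solute carrier gene, had 9.21 and 10.2 CPM in KO and 3.44 and 1.85 CPM in WT (1.84 ± 0.38). The rule itself asked that the KO and WT libraries of these genes did not overlap. That held for 44.9% of all genes tested in either direction and for 21.5% with KO higher.

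The other 27 genes that rose lay outside the rule for named genes, with log2 fold changes of 0.78 to 2.78, and those that follow were chosen after their values were seen. The rule passes over gene models without a gene name, which include E530001K10Rik, at 14.3 and 16.3 CPM in KO and 2.40 and 1.98 CPM in WT (2.78 ± 0.52), and 4933415A04Rik, at 14.7 and 12.6 CPM in KO and 1.36 and 3.30 CPM in WT (2.58 ± 0.40). Ddit4, an inhibitor of the growth kinase complex mTORC1, had 18.1 and 28.01 CPM in KO and 9.70 and 6.86 CPM in WT (1.45 ± 0.28), and the pseudokinase gene Trib3 had 20.2 and 32.0 CPM in KO and 9.70 and 8.05 CPM in WT (1.53 ± 0.31). No list of actin-binding proteins was tested, and 3 single genes that encode them were Enc1, with 181 and 240.4 CPM in KO and 103 and 62.4 CPM in WT, Dbn1, with 73.4 and 96.7 CPM in KO and 41.0 and 46.8 CPM in WT, and Cotl1, with 36.1 and 41.9 CPM in KO and 20.6 and 15.04 CPM in WT. H2afy, which encodes the histone variant macroH2A1, had 149.97 and 168 CPM in KO and 85.6 and 67.3 CPM in WT (1.06 ± 0.21), and shares 7.36% of its exon length with Gm47071. Evc2, a hedgehog pathway gene of the primary cilium, had 36.5 and 31.4 CPM in KO and 12.6 and 10.0 CPM in WT (1.58 ± 0.28). The smallest increase past the threshold was that of the semaphorin gene Sema6d, with 168 and 222 CPM in KO and 124 and 103 CPM in WT (0.78 ± 0.17). Adcy10, the soluble adenylyl cyclase gene, had 24.1 and 29.2 CPM in KO and 12.8 and 6.33 CPM in WT (1.45 ± 0.32). KO library 2 was the higher of the KO pair for each of the genes from Ddit4 on except Evc2.

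**Figure D2:**
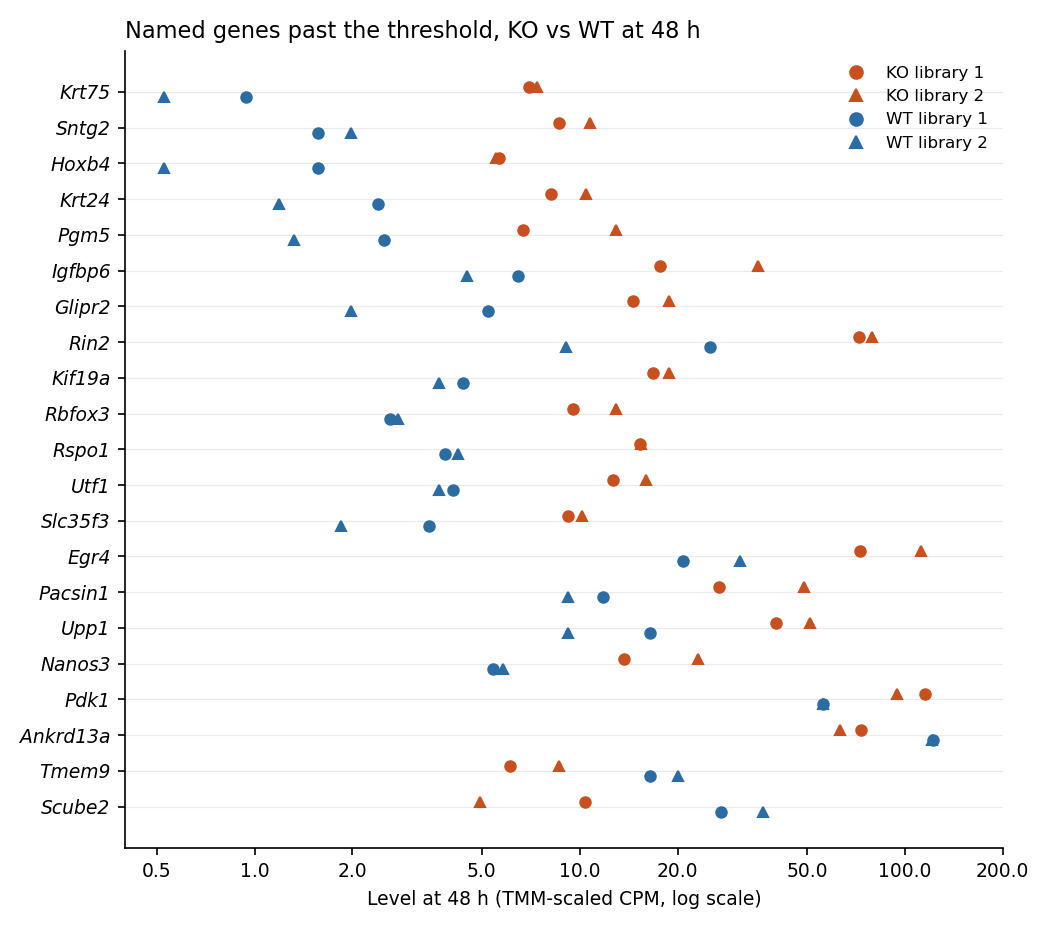
TMM-scaled CPM at 48 h (horizontal axis, log scale) of the named genes past the threshold (rows), 1 point per library, with KO and WT in different colours and library 1 and 2 as different symbols. In every row the KO points lie on 1 side of the WT points, which the rule asked of the genes picked by fold change. Scube2, Tmem9 and Ankrd13a are the rows with KO below WT.

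Genes lower in KO were few. Scube2, which encodes a secreted protein that helps to release hedgehog ligands, fell to 10.4 and 4.93 CPM in KO, against 27.1 and 36.7 CPM in WT (log2 -1.99 ± 0.42, adjusted p = 0.0376). Tmem9, a lysosomal membrane protein gene, had 6.09 and 8.62 CPM in KO and 16.5 and 20.1 CPM in WT (-1.34 ± 0.29, adjusted p = 0.0387). Ankrd13a, a ubiquitin-binding ankyrin repeat gene, had 73.5 and 63.1 CPM in KO and 122 CPM in both WT libraries (-0.83 ± 0.18, adjusted p = 0.0371), and shares 5.13% of its exon length with 4930515G01Rik. Leaving out any 1 of the 4 libraries ended each of these calls. The next genes by p did not pass. Gpr50, an orphan receptor gene related to melatonin receptors, had 1.78 and 2.46 CPM in KO and 9.91 and 7.92 CPM in WT (-2.11 ± 0.47, adjusted p = 0.0509). Fam83d, a mitotic spindle protein gene, had 38.5 and 30.5 CPM in KO and 64.0 and 67.1 CPM in WT (-0.92, adjusted p = 0.0553). The actin-bundling protein gene Lcp1 had 8.17 and 7.39 CPM in KO and 32.6 and 15.04 CPM in WT (-1.61, adjusted p = 0.0564). It shares 5.58% of its exon length with Gm15628. The phosphatase gene Phlpp1 (-0.997) and Tbc1d24 (-0.83) had adjusted p = 0.0812 and 0.0957. Gpr50, Fam83d, Lcp1, Phlpp1 and Tbc1d24 all passed with DESeq2.

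No gene of the differentiating list passed. Kit, the receptor gene of differentiating spermatogonia, had 544 and 578 CPM in KO and 702 and 920 CPM in WT (log2 -0.53 ± 0.35, adjusted p = 0.733). Of 14 genes tested 0 rose and 0 fell, with a median of -0.20, and DESeq2 also called 0. Ccnd2, the cyclin D2 gene, had 224 and 187 CPM in KO and 116 and 149 CPM in WT (0.63 ± 0.24), and the testis protease gene Prss50 had 0.74 and 1.85 CPM in KO and 4.70 and 5.15 CPM in WT (-2.07 ± 0.77). These were the 2 members at an unadjusted p under 0.05, and Ccnd2 shares 7.86% of its exon length with Gm43126. Sohlh1 and Sohlh2, helix-loop-helix factor genes of the start of differentiation, had 330.2 and 417 CPM and 113 and 106 CPM in KO, against 301 and 319 CPM and 117 and 106 CPM in WT. Dnmt3b, a DNA methyltransferase gene, had 301 and 298 CPM in KO and 355 and 370 CPM in WT (-0.28 ± 0.16).

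No gene of the meiotic list passed at this time. Of 38 tested genes of meiotic initiation and prophase 0 passed, and 2 were higher and 2 lower at an unadjusted p under 0.05, with a median log2 fold change of 0.03 and 0 calls with DESeq2. Without KO library 1, Stra8 itself was the single member that passed. The synaptonemal complex gene Sycp3 had 86.9 and 78.2 CPM in KO and 55.8 and 82.2 CPM in WT. The cohesin gene Rec8 had 25.8 and 20.9 CPM in KO and 19.9 and 24.3 CPM in WT. Dmc1, the meiotic recombinase gene, had 24.5 and 19.4 CPM in KO and 28.6 and 29.6 CPM in WT (-0.39 ± 0.26). Smc1b, a meiotic cohesin gene, had 270.4 and 215 CPM in KO and 337 and 345 CPM in WT (-0.49 ± 0.24, adjusted p = 0.604). Msh5, a crossover gene, had 7.13 and 10.8 CPM in KO and 15.4 and 14.6 CPM in WT (-0.78 ± 0.28, adjusted p = 0.389). The listed gene model Gm4969 had 25.1 and 22.5 CPM in KO and 25.5 and 22.3 CPM in WT.

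Genes of retinoic acid handling gave 0 calls among 25 tested, with 2 higher and 1 lower at an unadjusted p under 0.05, a median of -0.12 and 0 calls with DESeq2. Cyp26b1, which degrades retinoic acid, had 16.6 and 11.7 CPM in KO and 29.4 and 32.6 CPM in WT (-1.11 ± 0.34, adjusted p = 0.246). Rarg, a retinoic acid receptor gene, had 78.4 and 96.7 CPM in KO and 67.3 and 54.2 CPM in WT (0.52 ± 0.18, adjusted p = 0.356). Rara had 39.2 and 52.0 CPM in KO and 52.8 and 39.3 CPM in WT, so its libraries overlapped.

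Cell cycle lists had no gene past the threshold with edgeR or DESeq2. Of 48 DNA replication genes 1 was higher and 0 lower at an unadjusted p under 0.05 (median 0.03), and of 37 mitosis genes 0 were higher and 4 lower (median -0.17). The mitotic genes were Prc1, which encodes a midzone protein, with 142 and 131 CPM in KO and 201 and 215 CPM in WT (-0.60 ± 0.21), and Anln, Kif23 and Foxm1. Prc1 shares 11.1% of its exon length with Rccd1. Ccnd1, the cyclin D1 gene, had 108 and 118 CPM in KO and 167 and 183 CPM in WT (-0.64 ± 0.17, adjusted p = 0.144). It shares 23.4% of its exon length with LTO1. The kinase gene Cdk2 had 78.1 and 81.3 CPM in KO and 143 and 105 CPM in WT (-0.64 ± 0.19, adjusted p = 0.239). The opposite signs of Ccnd1 and Ccnd2 stand as values, since neither passed.

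Metabolic and germline lists gave 2 calls, where 0.308% of all genes tested passed. Pdk1, the kinase gene that turns down pyruvate dehydrogenase, rose, with 116 and 94.8 CPM in KO and 55.8 CPM in both WT libraries (log2 0.92 ± 0.20, adjusted p = 0.0387). It was the only 1 of 19 glycolysis genes that passed (median 0.16). Pdk1 did not pass with any 1 of the 4 libraries left out or without the 3 shallow KO libraries, and the list's median was -0.11 without KO library 2 and 0.36 without WT library 1. Aldoa, an aldolase gene, had 294 and 337 CPM in KO and 199 and 203 CPM in WT (0.65 ± 0.28, adjusted p = 0.532). Of 24 piRNA and germline genes Nanos3 was the 1 that passed (median 0.02). Dnmt3l, a cofactor gene of DNA methylation, had 4.75 and 12.0 CPM in KO and 4.07 and 1.32 CPM in WT (1.53 ± 0.51, adjusted p = 0.314). The lists of PRC1.6 repressors (14 genes, median 0.08), the MYC family (9, 0.14), autophagy and lysosome (27, 0.03), p53 targets and apoptosis (19, 0.20) and nuclear genes of oxidative phosphorylation (27, 0.20) had 0 calls with both tools. At an unadjusted p under 0.05 they had 1, 2, 2, 2 and 0 higher genes and 0, 1, 2, 0 and 0 lower ones, in that order.

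The 15 mitochondrially encoded genes all had positive log2 fold changes, with a median of 1.00 and a range of 0.71 to 1.32, but 0 passed, also at an unadjusted p under 0.05 and with DESeq2. With no filter on low counts 13 of the 15 passed, and with the 4 libraries alone 3 did, namely mt-Co2, mt-Co3 and mt-Atp6. Their median was 0.53 without WT library 1 and 1.52 without WT library 2. The cytochrome b gene mt-Cytb had 9958 and 9770.4 CPM in KO and 2911 and 6786 CPM in WT. WT library 1 was the lowest of the 4 libraries for mt-Cytb and for most of the others. The count of 54 genes past the threshold was also 54 with every feature whose name starts with mt- left out of the counts and totals. These features include more than the 15 listed genes, and 17479 genes were then tested.

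Markers of other testis cells had 0 calls with either tool. Summed over 18 Sertoli markers the level was 599 and 518 CPM of the library total in KO and 632 and 584 CPM in WT. Of these markers Sox9, Amh and Fshr were at most 10.9 CPM, so the other members of the list held most of each sum. Peritubular and stromal markers summed to 209 and 215 CPM in KO and 172 and 188 CPM in WT. The higher KO sum was not shared by most members. Of the 11 tested, 4 had a positive log2 fold change, and the median was -0.23. The collagen gene Col1a1 alone had 115 and 145 TMM-scaled CPM in KO and 67.9 and 103 in WT. Leydig markers summed to 14.8 and 12.0 CPM in KO and 14.7 and 14.6 CPM in WT, and endothelial markers to 39.1 and 44.3 CPM in KO and 47.3 and 45.0 CPM in WT. Macrophage markers summed to 2.83 and 5.09 CPM in KO and 5.90 and 4.52 CPM in WT, erythroid markers to 2.24 and 2.10 CPM in KO and 4.25 and 4.52 CPM in WT, and spermatid markers to 4.32 and 4.19 CPM in KO and 2.38 and 2.39 CPM in WT. The Sertoli, Leydig and macrophage sums overlapped between KO and WT. In all 4 libraries 2 macrophage, 1 erythroid, 1 Leydig and 3 spermatid markers had 0 reads. The part of these cells in the results above was not tested.

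The difference in Stra8 reads between the KO libraries was set beside their position for the 54 genes past the threshold. On the log2 scale KO library 1 was nearer to the WT mean than KO library 2 in 47 of 54 genes (87.0%). The median distance from the WT mean was 1.26 in KO library 1 and 1.67 in KO library 2. Over 5713 genes with at least 5 CPM whose KO and WT libraries did not overlap, KO library 1 was nearer in 54.4%, with medians of 0.372 and 0.400. The 54 genes were chosen on these libraries, so this is a description and has no test, and the part of the Stra8 reads in it was not tested.

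**Figure D3:**
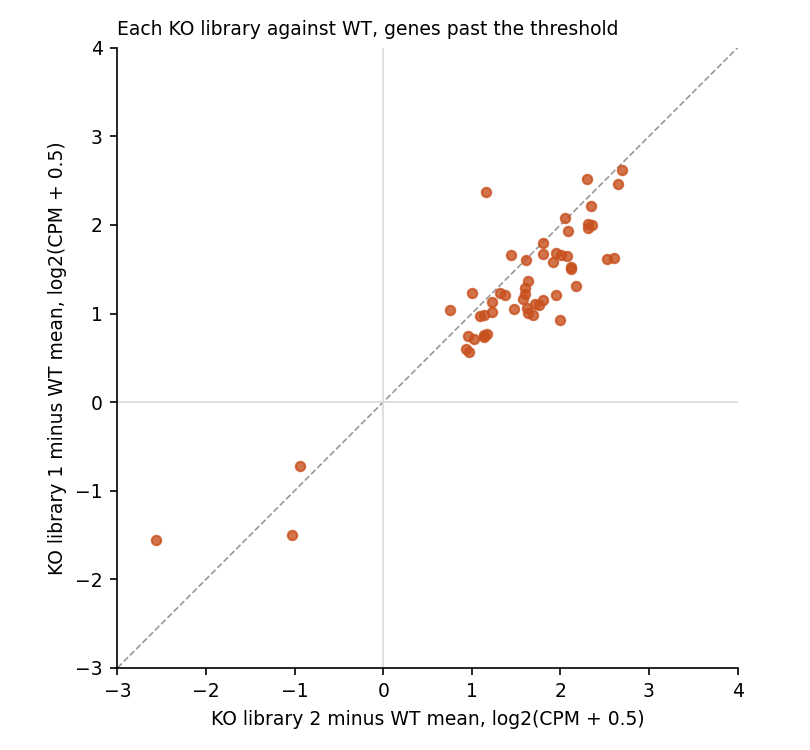
Difference from the WT mean on the log2(CPM + 0.5) scale in KO library 2 (horizontal axis) and in KO library 1 (vertical axis), 1 point per gene past the threshold at 48 h, with the line of equal differences. Most genes lie nearer to 0 on the axis of KO library 1, which holds for 47 of 54.

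The libraries of the other 6 times did not enter the choice of these genes beyond the shared estimate of spread, though same-numbered WT libraries varied together. At 0 h, after WIN 18,446 and before retinoic acid, 47 of the 51 genes already had a positive log2 fold change, with a median of 0.38, while 48.8% of all genes did. None of the 51 and no gene at all passed at 0 h (quasi-likelihood test of edgeR, in which 1193 genes had an unadjusted p under 0.05, 11 of the 51 among them). At 12, 18, 72, 96 and 120 h all 51 genes were above 0. Their median log2 fold change was 1.22 at 12 h, 1.66 at 18 h, 1.41 at 72 h, 1.62 at 96 h and 1.89 at 120 h, against medians between -0.04 and -0.01 over all genes. Of the 51 genes 30 passed at 12 h, 42 at 18 h, 41 at 72 h, 47 at 96 h and 50 at 120 h, where 1.18%, 4.14%, 4.7%, 4.47% and 15.4% of all genes passed in either direction. Without the 3 shallow KO libraries 30 of them passed at 72 h, 44 at 96 h and 48 at 120 h, where 0.739%, 3.88% and 11% of all genes did. The 3 lower genes were below 0 at each of these times, and 1 of 3 was below 0 at 0 h.

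Over the time course the 4 spermatogonial genes started from high levels in both genotypes. At 0 h Upp1 had 145 and 149 CPM in KO and 121 and 102 CPM in WT, Egr4 118 and 176 CPM in KO and 104 and 131 CPM in WT, Nanos3 67.9 and 52.5 CPM in KO and 34.4 and 43.1 CPM in WT, and Utf1 29.1 and 27.6 CPM in KO and 24.5 and 15.3 CPM in WT. At 48 h each was below both 0 h libraries of its genotype in KO and in WT. The KO levels of Upp1 and Nanos3 at 48 h lay between the 48 h and the 0 h levels of WT, and those of Egr4 and Utf1 reached into the 0 h range of WT. At 120 h Upp1 had 111 and 143 CPM in KO and 23.5 and 23.8 CPM in WT, and Nanos3 had 47.3 and 41.2 CPM in KO and 9.48 and 13.0 CPM in WT. The difference between KO and WT at 0, 12, 18, 48, 72, 96 and 120 h was 0.40, 1.14, 1.83, 1.81, 1.23, 2.13 and 2.41 on the log2 scale for Upp1. For Egr4 it was 0.32, 2.08, 1.92, 1.83, 1.26, 2.03 and 2.13 in the same order. Egr4 and Utf1 passed at 12 h and at each later time, and Nanos3 missed the threshold at 12 h (1.26 ± 0.32, adjusted p = 0.0529).

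Hoxb4, Rspo1 and Krt75 kept higher KO levels too. Hoxb4 had 26.2 and 18.2 CPM in KO and 5.90 and 7.72 CPM in WT at 12 h, and 12.0 and 14.7 CPM in KO and 2.05 and 2.79 CPM in WT at 120 h. Rspo1 had 27.8 and 32.3 CPM in KO and 16.4 and 17.1 CPM in WT at 0 h, and 29.1 and 38.5 CPM in KO and 5.13 and 7.17 CPM in WT at 120 h. Krt75 had 6.47 and 4.42 CPM in KO at 12 h, against 1 and 0 reads in WT. Scube2 took the opposite course. It had 6.40 and 3.09 CPM in KO and 6.74 and 4.86 CPM in WT at 0 h, and 8.30 and 3.60 CPM in KO and 48.9 and 20.4 CPM in WT at 72 h. The log2 fold change of Scube2 was -1.83 at 12 h, -1.90 at 18 h, -2.33 at 72 h, -1.72 at 96 h and -1.58 at 120 h. Kit was higher at 48 h than at 0 h in every library of both genotypes, with 27.9 and 37.5 CPM in KO and 22.0 and 65.2 CPM in WT at 0 h.

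**Figure D4:**
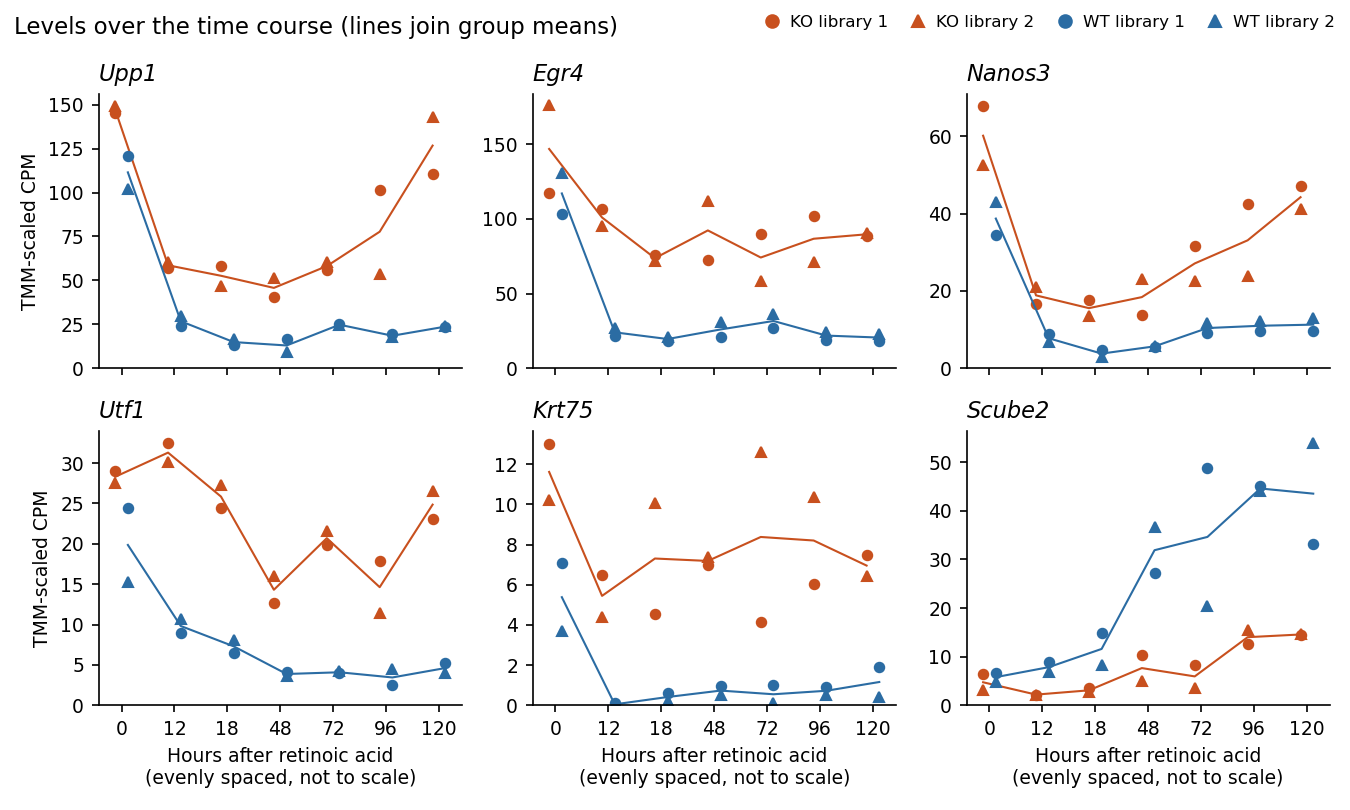
TMM-scaled CPM (vertical axes, starting at 0) of 6 named genes, 1 per panel, at the 7 times in hours (horizontal axes), evenly spaced and not to scale, with 1 point per library, KO and WT in different colours, and lines through the group means. In the panels of genes that rose, the KO points at 48 h lie above the WT points, as with Upp1 at 40.2 and 51.1 CPM in KO and 16.5 and 9.23 CPM in WT.

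Whether the 48 h difference itself departed from that of the times next to it was tested with interaction terms. Against 18 h, 9 genes passed (0.0514% of 17519), and none of the 54 genes was among them. All 9 had a more positive KO over WT difference at 18 h than at 48 h, and none passed at 48 h. Mycn, a MYC family transcription factor gene, had 114 and 116 CPM in KO and 25.1 and 23.6 CPM in WT at 18 h, and 60.3 and 76.6 CPM in KO and 57.5 and 45.5 CPM in WT at 48 h. Ddr1, a collagen receptor gene, had 170 and 179 CPM in KO and 14.2 and 20.2 CPM in WT at 18 h, and 40.2 and 50.8 CPM in KO and 30.8 and 40.1 CPM in WT at 48 h. Between these times the KO level was lower at 48 h and the WT level higher at 48 h for both genes. Smoc2, which encodes a matrix protein, had 56.6 and 67.0 CPM in KO and 14.1 and 15.9 CPM in WT at 18 h, and 40.5 and 41.9 CPM in KO and 44.6 and 39.0 CPM in WT at 48 h. Leaving out KO library 1 at 48 h ended all of these calls, and leaving out either WT library ended part of them. Most of the calls stayed without KO library 2. Against 72 h, 0 genes passed with edgeR (0%), 1060 had an unadjusted p under 0.05, and DESeq2 called 1.

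**Figure D5:**
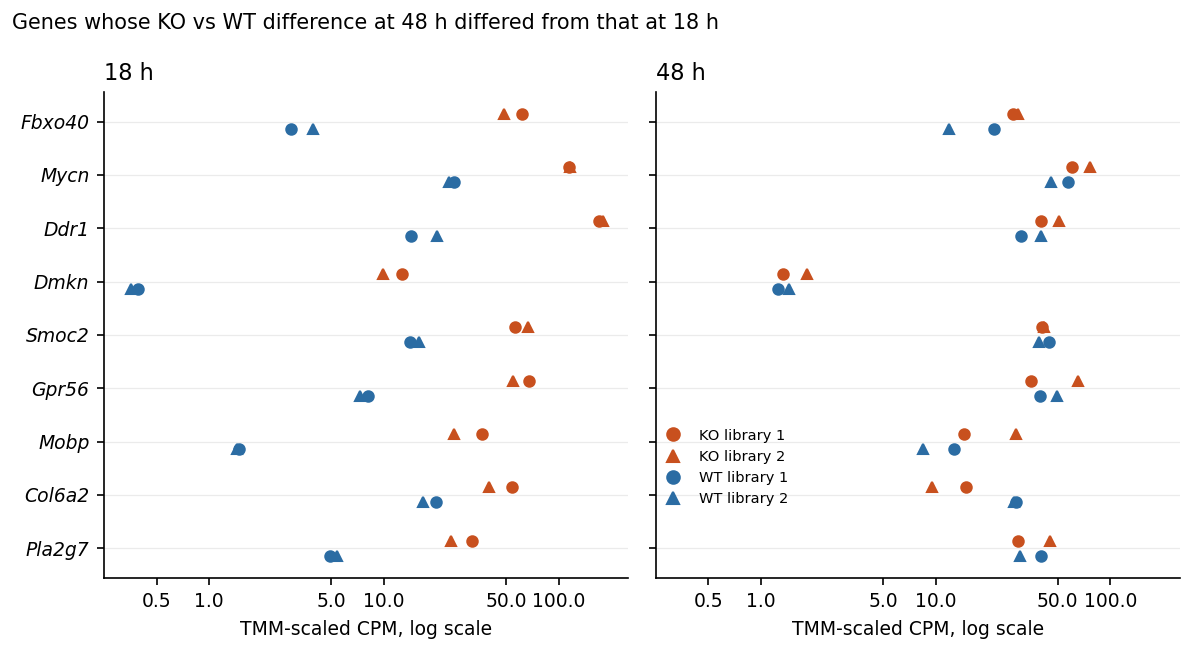
TMM-scaled CPM (horizontal axes, log scale) of the 9 genes (rows) whose KO over WT difference at 48 h differed from that at 18 h, at each of these times (panels), 1 point per library, with KO and WT in different colours. At 18 h the KO points lie to the right of the WT points in all 9 rows; at 48 h the genotypes lie close together in most, such as Smoc2 with 40.5 and 41.9 CPM in KO and 44.6 and 39.0 CPM in WT.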

How the data were processed

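PolyA RNA of sorted germ cells was sequenced in 28 libraries of 14 groups (KO or WT, 7 times), 2 libraries per group. Per the submitters' processing notes, TopHat, Bowtie and Cufflinks were run with mouse build mm10. Their versions, the program that counted reads and whether strand was used are not stated there. Whole-number read counts by gene symbol were deposited in 2 tables that hold 1 library of each group. A further 2 deposited tables carry the name FPKM, but their values were CPM of the library total, since 25 of 28 columns equalled a count column scaled to its total within 0.001 CPM. KO columns there carried the other number, so the 48 h KO library 2 of the counts stands in the first CPM table. The labels do not settle which numbering is that of the samples. The other 3 CPM columns, KO at 72, 96 and 120 h, matched no count column, but their smallest steps gave whole reads for 100% of values (tolerance 0.1 read) and totals of 4479729, 4190648 and 4122222 reads, called recovered reads. The CPM tables entered only that check and an alternative.

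Of 43280 features, 27 with date-like names (at most 0.135% of a library's counts) were left out. No column of per-sample values was left unmapped. The main test was the quasi-likelihood test of edgeR 4.0.16 (R 4.3.3), with robust dispersion, TMM scaling, the default filter on expression and 14 group means over all 28 libraries. P-values were adjusted by Benjamini-Hochberg over the 17519 genes kept; each adjusted p-value in the text comes from it unless DESeq2 1.42.0 is named. The procedure was tested on simulated counts. The members, the 23 gene lists and the tests were chosen with earlier results of these data known. Genes were named by a rule. Stra8 and Kit came first, then up to 15 genes each way by fold change among those past 0.05 that did not overlap and had a mean of at least 5 CPM in KO or WT. Gene models without a gene name were only counted. Where fewer passed, the next by p filled up to 8. From each list up to 4 genes past the threshold were added, or else 2 by smallest p, given as values, and genes of the interaction terms were added by p. Genes of the lists outside this rule were chosen after their values were seen. Exon overlaps come from GENCODE for GRCm38, and promoter sequences from RefSeq for GRCm38.p6.

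Where a library had 0 reads, 3 counts were taken as the limit that this allows, for counting error only. The replicate numbers are shared by KO and WT. Deviations of the same-numbered KO and WT libraries at 48 h correlated at 0.011 across genes, so the numbers were not taken to pair them. Alternatives were other size factors, no filter or a mean of at least 20 counts, DESeq2, each 48 h library left out, the 3 shallow KO libraries left out, mitochondrial genes left out, the 4 libraries alone and a replicate block. Alternatives added after seeing the data were a block with KO numbers as in the CPM tables, and recovered reads for the 3 shallow libraries.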

Additional observations from a re-analysis of the deposited data

Results flagged for a closer look

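For 9 genes the difference between KO and WT at 48 h departed from that at 18 h by the interaction term (quasi-likelihood test of edgeR, adjusted by Benjamini-Hochberg over 17519 genes, 2 libraries per group). The interaction is the 48 h difference minus the 18 h difference on the log2 scale. It was -3.23 ± 0.47 for the F-box protein gene Fbxo40 (adjusted p = 0.00543), which had 61.8 and 48.4 CPM in KO and 2.94 and 3.95 CPM in WT at 18 h, and 27.9 and 29.6 CPM in KO and 21.5 and 11.9 CPM in WT at 48 h. It was -1.83 ± 0.27 for Mycn (adjusted p = 0.00543), -2.98 ± 0.46 for Ddr1 (adjusted p = 0.0103) and -2.06 ± 0.35 for Smoc2 (adjusted p = 0.0165). For the dermokine gene Dmkn it was -4.64 ± 0.76 (adjusted p = 0.0121), with 12.7 and 9.86 CPM in KO and 0.39 and 0.36 CPM in WT at 18 h, and 1.34 and 1.85 CPM in KO and 1.25 and 1.45 CPM in WT at 48 h.

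For the adhesion receptor gene Gpr56 the interaction was -2.82 ± 0.49 (adjusted p = 0.0239), and for the myelin protein gene Mobp -3.39 ± 0.60 (adjusted p = 0.0260). For the collagen VI gene Col6a2 it was -2.57 ± 0.47 (adjusted p = 0.0299), with 54.3 and 40.1 CPM in KO and 19.9 and 16.6 CPM in WT at 18 h, and 14.8 and 9.54 CPM in KO and 29.0 and 28.2 CPM in WT at 48 h. Its 48 h difference of -1.20 ± 0.34 did not pass (adjusted p = 0.183). For the phospholipase gene Pla2g7 it was -2.38 ± 0.45 (adjusted p = 0.0454). The fold changes of these 9 genes over the libraries of both times rest on 8 libraries. Leaving out KO library 1 at 48 h ended all of these calls, whereas most stayed without KO library 2.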

How the results depend on the processing

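The 54 genes at 48 h were 53 with relative log expression size factors, 62 with a mean of at least 20 counts, 36 without the 3 shallow KO libraries, 75 with the 4 libraries alone and 72 with recovered reads. They were 217 with no filter (48 of the 54 among them), 108 with DESeq2, 86 with the replicate block, 83 with the block numbered as in the CPM tables, and 0 to 23 with 1 library left out. Deviations of same-numbered WT libraries correlated at 0.258 to 0.517 between times, but those of same-numbered KO and WT libraries at -0.209 to 0.108, so KO and WT libraries were taken to share only a number, and the cause of these changes was not tested. The 9 interaction genes were 48 with no filter, 18 with DESeq2, 10 with the replicate block and 0 to 9 with 1 library left out. Against 72 h the count of 0 was 55 with no filter, 1 with DESeq2 and 0 with the replicate block and with each library left out. Stra8 passed at -2.13 with no filter, at -2.02 with the replicate block it did not, and it ranged from -6.14 to -1.28 with 1 library left out. Of the 21 named genes past the threshold, 21 remained with DESeq2 and the block, 15 with the 4 libraries alone, 15 without the shallow libraries, and 0 to 10 with 1 library left out. Signs turned, with 1 library left out, only for genes that did not pass: Hsd17b3 (-0.99 to 4.59), Csf1r (-4.60 to 3.63), Dmkn (-0.035 to 0.40), Smoc2 (-0.12 to 0.062), Gpr56 (-0.36 to 0.50) and Camsap3 (-0.056 to 0.21). With no filter, genes that gained a call in the lists included Pou5f1, Prss50, Stra8, Map1lc3b, Egr1 and Eno1, and with the 4 libraries alone Map1lc3b and Egr1. List medians near 0 turned sign with 1 library left out, as in the meiotic list (0.03, and -0.11 without KO library 1). Depth, lowest at 3340355 reads in KO library 2, and 2 libraries per group limit the precision for genes of few reads.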
